A study of Homo sapiens with 14 samples.

Results

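The windows described here are those at the start sites of genes with a LINC symbol, the name given to long intergenic noncoding RNA genes that have no better-defined title. They were chosen by their symbol alone, LINC followed by a digit, and not by any measured value. There were 1723 such windows among the 28159 gene windows in the table (6.12%), after 1 row had been left out. Each window is 1000 bases long and is placed at 1 gene start, and windows of neighbouring genes can overlap. The measurement was chromatin immunoprecipitation and sequencing (ChIP-seq) of RNA polymerase II phosphorylated at Ser5, made with the antibody 3E8 in HCT116, a human colorectal carcinoma line carrying wild-type p53.

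Of the 6 ChIP libraries, 1 came from cells given 10 µM Nutlin3a after electroporation with 10 µM of a stapled peptide, 2 from cells given Nutlin3a without peptide, 1 from cells given 0.1% DMSO with peptide, and 2 from cells given 0.1% DMSO without peptide. All cells, controls included, were electroporated and then kept in culture for 3 h, and peptide wells received a further 200 nM of peptide in the medium. Both peptide libraries carry replicate number 2. Nutlin3a keeps the ligase MDM2 from p53, and the peptide was designed to stop p53 from binding Mediator. Each of the 4 conditions also had 2 inputs, which are sheared chromatin sequenced without the antibody. The labels do not say whether replicates were separate cultures, and if they were not, the p-values measure technical spread only.

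Long intergenic noncoding RNAs are transcribed by RNA polymerase II, mostly capped and spliced, and many are made in few cell types and at low levels. Polymerase is phosphorylated at Ser5 of its C-terminal repeats as it leaves a promoter, so this mark is richest at active start sites. Promoters of broadly used genes usually lie in CpG islands, stretches in which CG dinucleotides have been kept, and polymerase often starts from them in both directions. A LINC gene that starts beside a coding gene can therefore share its promoter.

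The sequences below show the kinds of promoter met among the members: 2 isolated windows with high ChIP signal, 3 windows that overlap another gene's window, and 1 isolated window that passed on few reads. They are RefSeq promoters (GRCh38.p14), from 250 bases before to 50 bases after the gene start, 5′ to 3′ along the gene's strand, with every CG dinucleotide in capitals.
LINC02595, chrX:45851441-45851740, minus strand: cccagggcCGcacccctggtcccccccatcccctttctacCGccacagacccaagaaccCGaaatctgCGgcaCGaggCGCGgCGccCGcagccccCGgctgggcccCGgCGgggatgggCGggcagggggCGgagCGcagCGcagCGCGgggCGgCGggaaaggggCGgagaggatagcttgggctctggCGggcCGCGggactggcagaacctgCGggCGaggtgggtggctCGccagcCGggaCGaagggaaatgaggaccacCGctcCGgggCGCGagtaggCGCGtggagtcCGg
LINC00673, chr17:72592755-72593054, minus strand: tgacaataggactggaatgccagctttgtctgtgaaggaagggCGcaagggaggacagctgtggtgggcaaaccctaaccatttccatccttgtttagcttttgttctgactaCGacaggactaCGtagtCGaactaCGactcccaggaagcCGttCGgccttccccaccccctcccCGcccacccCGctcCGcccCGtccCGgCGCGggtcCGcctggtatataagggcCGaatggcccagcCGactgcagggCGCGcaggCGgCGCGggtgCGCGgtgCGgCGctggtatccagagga
LINC01465, chr12:62603385-62603684, minus strand: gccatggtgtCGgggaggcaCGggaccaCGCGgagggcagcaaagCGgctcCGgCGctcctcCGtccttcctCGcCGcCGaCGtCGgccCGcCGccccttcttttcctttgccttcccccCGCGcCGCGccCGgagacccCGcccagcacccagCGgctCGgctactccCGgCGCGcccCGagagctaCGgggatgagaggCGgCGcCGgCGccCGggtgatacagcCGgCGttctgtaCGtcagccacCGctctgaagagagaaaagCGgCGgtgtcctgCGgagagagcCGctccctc
LINC02585, chr3:48663518-48663817, plus strand: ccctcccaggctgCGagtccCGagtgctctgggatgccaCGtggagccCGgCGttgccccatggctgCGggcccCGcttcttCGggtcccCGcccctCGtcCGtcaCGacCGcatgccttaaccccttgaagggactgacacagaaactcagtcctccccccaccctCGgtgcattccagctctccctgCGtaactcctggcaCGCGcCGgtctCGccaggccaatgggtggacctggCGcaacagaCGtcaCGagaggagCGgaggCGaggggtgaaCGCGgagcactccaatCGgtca
LINC01184, chr5:128083126-128083425, minus strand: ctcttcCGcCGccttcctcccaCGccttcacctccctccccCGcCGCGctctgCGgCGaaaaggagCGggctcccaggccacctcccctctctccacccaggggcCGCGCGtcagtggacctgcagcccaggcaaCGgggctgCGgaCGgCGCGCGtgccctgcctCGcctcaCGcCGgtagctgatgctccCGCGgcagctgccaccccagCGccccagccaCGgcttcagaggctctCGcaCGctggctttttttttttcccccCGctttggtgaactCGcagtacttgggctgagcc
LINC01355, chr1:23285469-23285768, minus strand: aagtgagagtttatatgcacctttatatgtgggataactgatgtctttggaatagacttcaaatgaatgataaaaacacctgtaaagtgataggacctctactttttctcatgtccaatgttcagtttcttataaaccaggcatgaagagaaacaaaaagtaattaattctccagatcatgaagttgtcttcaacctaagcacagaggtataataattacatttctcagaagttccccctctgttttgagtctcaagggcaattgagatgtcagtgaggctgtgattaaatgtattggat
The promoter of LINC02595 holds 36 CG dinucleotides, that of LINC00673 holds 26, those of LINC01465, LINC02585 and LINC01184 hold 41, 27 and 29, and that of LINC01355 holds 0.

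All 1723 members matched a RefSeq gene, 1655 of them by symbol, 63 by accession and 5 by an older name. RefSeq classes 1710 as long noncoding RNA, 8 as transcribed pseudogenes and 5 as protein coding. Under its current name, 68 members carry another symbol, among them 23 whose symbol ends in DT for divergent transcript. LINC01184, for example, is now SLC12A2-DT. The members are unevenly spread over the genome. On chromosome 13 they made up 138 windows, or 21.8% of all windows there, against 2.55% on chromosome 7 and 1.96% on chromosome 19.

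The windows were not laid out alike on both strands. In 98.7% of the 878 plus-strand members and 99.1% of the 818 minus-strand members with a known strand, the gene start lay 300 bases, within 2 bases, from the left edge. A plus-strand window thus covers 300 bases upstream and 700 downstream of the start, and a minus-strand window the reverse. The share of windows called above input, described next, was 5.58% on the plus strand (49 windows) and 5.87% on the minus strand (48 windows).

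The 6 ChIP libraries held 1290223 to 2240951 reads in all windows, and the 8 inputs 161719 to 359276. Of 11 colon epithelial genes, 8 were above input, including EPCAM, KRT8 and CDX2, whereas CDH1, VIL1 and CDX1 were not. Over all tested windows 39.1% were above input. The summed level of the listed epithelial genes was 1268 to 1584 CPM over the ChIP libraries, where CPM is a window's reads per 1000000 reads in all windows of that library. None of 6 blood cell genes, of which 5 were tested, and none of 5 mesenchymal and endothelial genes was above input by edgeR's test. Their summed levels were 18.6 to 58.9 and 19.2 to 51.2 CPM. Nutlin3a replicate 1 stood apart from the other ChIP libraries. Its reads in 407 isolated olfactory receptor windows, which serve as silent windows here, summed to 3296 CPM, whereas the remaining 5 ChIP libraries had 940.2 to 1461 CPM there and the inputs 2221 to 3753 CPM.

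Most LINC windows carried little polymerase signal in these cells. Over all 1723 members the share of each library's reads was 1.45% to 2.09% in the ChIP libraries and 2.49% to 2.89% in the inputs, so that LINC windows took a smaller part of the immunoprecipitated reads than of the sheared chromatin. The median member had a mean of 4.45 CPM over the ChIP libraries and 10.6 CPM over the inputs, beside 15.7 and 28.5 CPM for the median of all windows. A count of 1339 members (77.7%) passed the filter on low counts, against 92.0% of all windows. Over all 1723 members, tested or not, 464 reached the filter's level of 5.36 CPM in Nutlin3a replicate 1 and in no other ChIP library.

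ChIP was then compared with input at each window by edgeR's quasi-likelihood test over 14 libraries, with libraries scaled to equal reads in the silent olfactory receptor windows. Above input were 97 members at an adjusted p below 0.05. Over all windows 39.1% of those tested were called higher (10137 of 25901), and 36.0% of all windows in the table, against 5.63% of all members. Below input were 5 members, all isolated, where 0.108% of all tested windows were called lower. The 5 were LINC02474, LINC00111, LINC01213, LINC02517 and LINC01251, whose fitted log2 ratios ran down to -2.40. The 97 windows above input had log2 ratios of 1.09 to 4.46 with a median of 1.80, or 3.49-fold, where the highest is a fitted value at LINC01317, which has 0 input reads, and is no bound. Their mean level ranged from 3.37 to 209 CPM, with a median of 58.5 CPM, and 15 of them reached 100 CPM.
The count moved with the scaling of ChIP against input. With TMM factors 55 members were above and 198 below input, and with total counts 33 were above and 367 below, where the scaling to silent windows gave 97 above and 5 below. Over all tested windows, 6042 were above and 2801 below with TMM factors, and 3700 above and 5465 below with total counts. The size of a ratio moved as well: that of LINC00941 was 2.63 with silent windows, 1.64 with TMM factors and 1.27 with total counts on the log2 scale. From the DMSO libraries alone, 38 members were above input, and 3819 of all 25901 tested windows.

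**Figure D1:**
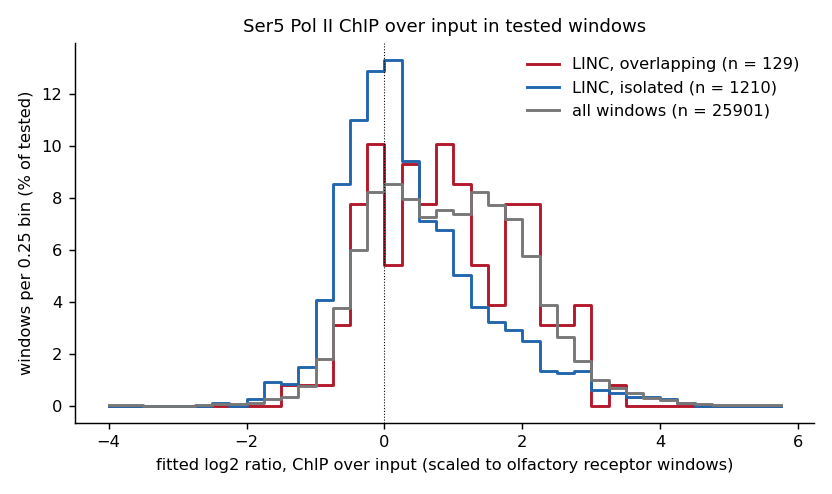
Fitted log2 ratio of ChIP over input (x axis) in windows that passed the filter, as the percent of each class per 0.25 bin (y axis), for 129 overlapping LINC windows, 1210 isolated LINC windows and all 25901 tested windows. Isolated LINC windows peak near 0, and overlapping LINC windows reach further to the right, as all windows do.

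Windows that overlap another gene's window were compared with isolated ones. Of the members, 142 (8.24%) shared at least 1 base with another window, against 22.9% of the other windows in the table, and 1581 were isolated. Above input were 45 of the 142 overlapping windows (31.7%) and 52 of the 1581 isolated windows (3.29%), beside 9 of the 407 isolated olfactory receptor windows (2.21%) used as silent. The median input level was 25.9 CPM in overlapping and 9.73 CPM in isolated members. The median log2 ratio of those tested was 0.87 and 0.18, beside 0.24 in tested isolated olfactory receptor windows and 0.91 in all tested windows. The part of coverage in the shares called was not tested. The reads in a shared stretch count for both genes and carry no strand, so the signal of an overlapping window cannot be assigned to the LINC gene. Among other windows that RefSeq classes as long noncoding RNA, 53.2% of the overlapping and 8.43% of the isolated were above input, and among protein-coding windows 65.9% and 38.6%.

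The share above input differed by the kind of neighbour. Where the neighbour was a protein-coding gene, 30 of 40 windows were above input (75%), and 26 of 35 (74.3%) where RefSeq places both starts back to back. Where the neighbour was a long noncoding gene that is not a member, 6 of 25 (24%) were above input. Where it was another member, 4 of 60 (6.67%) were, and such pairs share reads and are not independent. Of the remaining overlapping windows, 2 of 9 beside a pseudogene, 2 of 7 beside a microRNA, snRNA or snoRNA gene, and 1 beside a gene without a class were above input. Isolated windows followed distance as well: 13 of 115 (11.3%) were above input where the next window lay within 5000 bases, 26 of 658 (3.95%) at more than 5000 and up to 50000 bases, and 13 of 808 (1.61%) beyond that. The median input level was 14.1, 14.1 and 6.54 CPM in these distance classes. Beside a protein-coding gene, a long noncoding gene that is not a member and another member it was 45.4, 23.8 and 14.5 CPM. Its part in the results was not tested. No test was made over windows, which are not replicates of a condition.

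Names in RefSeq followed the same division. Of 68 members with another current symbol, 19 (27.9%) were above input, and of the 23 now named as divergent transcripts 13 (56.5%) were. Of the 1655 whose LINC name stands, 78 (4.71%) were above input.

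**Figure D2:**
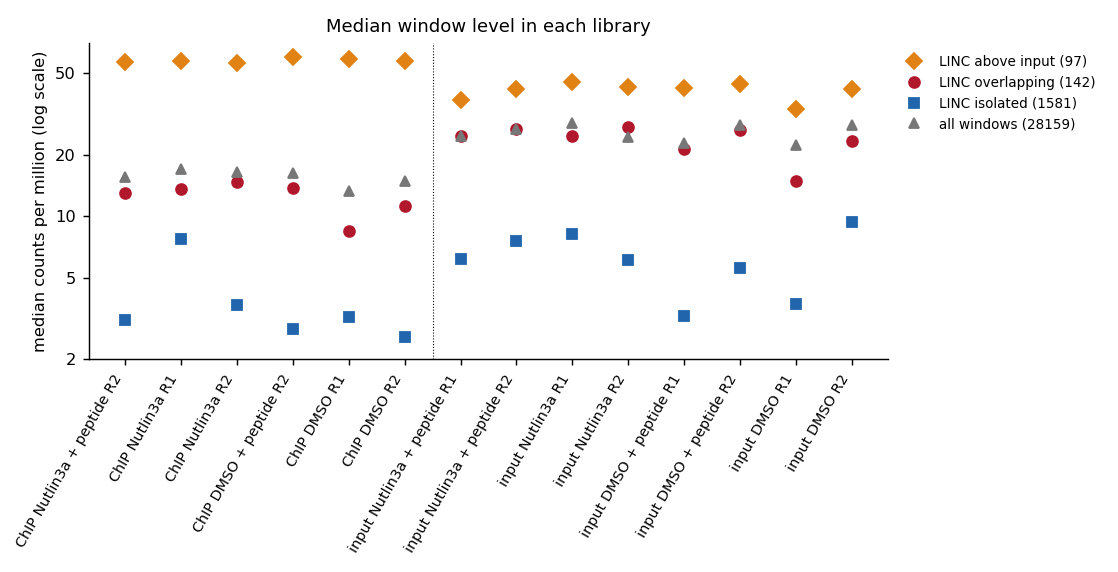
Median level in CPM (y axis, log scale) in each of the 6 ChIP libraries and the 8 inputs (x axis, R1 and R2 are replicate numbers), for LINC windows above input, overlapping LINC windows, isolated LINC windows and all windows. Isolated LINC windows had 2.56 to 7.75 CPM in the ChIP libraries, with Nutlin3a replicate 1 highest, and overlapping ones 8.46 to 14.7 CPM.

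Among isolated windows, the largest ratios with many reads belonged to LINC02595, LINC00941, LINC00673, LINC01311 and LINC01970. LINC02595 (chrX:45851191-45852190) had 100 CPM with Nutlin3a and peptide, 59.7 and 94.8 CPM with Nutlin3a, 113 CPM with DMSO and peptide, and 75.0 and 96.8 CPM with DMSO. Its inputs ran from 0 to 53.3 CPM with a median of 18.6 CPM. Every ChIP library was above every input, and the fitted log2 ratio was 3.91 ± 0.49 (SE), with an adjusted p of 1.7e-13 by edgeR. Its size rested on single inputs, as it was 5.49 without DMSO and peptide input replicate 2, 5.47 without Nutlin3a and peptide input replicate 2 and 4.96 without DMSO input replicate 2. It was 5.70 from the DMSO libraries alone, 2.94 with TMM factors and 2.57 with total counts.

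LINC00941 (chr12:30795381-30796380), a noncoding RNA reported in colorectal and other tumours, had 125 CPM with Nutlin3a and peptide, 127 and 142 CPM with Nutlin3a, 128 CPM with DMSO and peptide, and 130 and 164 CPM with DMSO. The inputs lay between 41.8 and 93.1 CPM, below all ChIP libraries. The log2 ratio was 2.63 ± 0.43. Its ChIP level was tight across libraries, at 136 CPM on average, between 125 and 164 CPM, and higher than that of 96.8% of all windows.

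LINC00673 (chr17:72592505-72593504), studied in pancreatic cancer and melanoma, was the member with the highest ChIP level. It had 242 CPM with Nutlin3a and peptide, 173 and 199 CPM with Nutlin3a, 230 CPM with DMSO and peptide, and 205 and 204 CPM with DMSO, against 54.9 to 148 CPM in the inputs. No input reached the lowest ChIP library, and the log2 ratio was 2.62 ± 0.41. LINC00511, whose window lies 46668 bases from it on the same chromosome, had 38.2 ± 7.44 CPM in the ChIP libraries and 76.4 ± 21.3 CPM in the inputs (SD, n = 6 and 8), and was not called (log2 ratio 0.36 ± 0.43).

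LINC01311 (chr22:19171406-19172405) averaged 152 ± 25.6 CPM in the ChIP libraries and 73.0 ± 35.2 CPM in the inputs, a log2 ratio of 2.54 ± 0.42. Its lowest ChIP library, Nutlin3a replicate 1 with 105 CPM, lay below its highest input, with 131 CPM. LINC01970 (chr17:82292515-82293514) averaged 160 ± 14.3 CPM in the ChIP libraries and 68.8 ± 17.8 CPM in the inputs, a log2 ratio of 2.53 ± 0.42, with no overlap between ChIP and input.

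The other 3 isolated windows with the largest fitted ratios rested on few reads. LINC01317 (chr2:33706586-33707585) had 35 reads over the 6 ChIP libraries and 0 over the 8 inputs, which makes it at least 4.5-fold higher in ChIP when the inputs together are set to a floor of 3 reads. LINC01355 (chr1:23285219-23286218) had 45 ChIP reads and 2 input reads, a ratio of 8.67 with an exact 95% interval of 2.27 to 73.8 that covers counting error only. LINC02565 (chr18:57170895-57171894) had 34 and 1 reads, a ratio of 13.1 with an interval of 2.20 to 533. All 3 were highest in Nutlin3a replicate 1, at 10.9, 10.1 and 8.53 CPM, and none was called with TMM factors, total counts or the DMSO libraries alone. LINC01317 and LINC02565 passed the filter through that library alone, since their other ChIP libraries reached at most 4.57 and 3.66 CPM, so their ratios are given as a description. By edgeR, LINC01317 was no longer called without Nutlin3a ChIP replicate 1 (adjusted p = 0.052), DMSO ChIP replicate 1 (0.060) or Nutlin3a input replicate 1 (0.055). LINC02565 was no longer called without DMSO ChIP replicate 1 (adjusted p = 0.061), DMSO input replicate 1 (0.052), Nutlin3a input replicate 2 (0.0504), or peptide and Nutlin3a input replicates 1 (0.0505) and 2 (0.055), by edgeR. These were the only members above input with a mean of under 10 reads per ChIP library, and 85 of the 97 had a mean of at least 50.

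Among overlapping windows the largest ratio was that of LINC01465 (chr12:62603135-62604134), which shares 749 bases with the window of MIRLET7I, the gene of a let-7 family microRNA. It had 208 CPM with Nutlin3a and peptide, 115 and 156 CPM with Nutlin3a, 182 CPM with DMSO and peptide, and 170 and 172 CPM with DMSO, against 6.18 to 85.6 CPM in the inputs. The groups of ChIP and input did not overlap, and the log2 ratio was 3.45 ± 0.44, or 10.9-fold. It was 4.12 without Nutlin3a and peptide input replicate 2, 2.46 with TMM factors and 2.09 with total counts. The window of MIRLET7I itself averaged 108 CPM in the ChIP libraries.

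Of the next 7, 5 start beside a protein-coding gene. LINC02585 (chr3:48663468-48664467) shares 119 bases with CELSR3, a cadherin-type adhesion receptor, and averaged 137 ± 15.6 CPM in ChIP and 48.6 ± 12.5 CPM in input (log2 ratio 2.84 ± 0.43). LINC01184 (chr5:128082876-128083875) shares 410 bases with SLC12A2, a sodium, potassium and chloride cotransporter, and averaged 130 ± 18.6 and 49.6 ± 29.6 CPM in ChIP and input. LINC01126 (chr2:43226911-43227910) shares 396 bases with ZFP36L2, which promotes the decay of mRNAs, and averaged 129 ± 21.8 and 50.1 ± 27.1 CPM in ChIP and input. In these 3 the ChIP libraries all lay above the inputs.
LINC01715 (chr1:28642956-28643955) shares 812 bases with TAF12, a subunit of the general transcription factor TFIID, and LINC00476 (chr9:95875678-95876677) shares 713 bases with ERCC6L2, a helicase-like DNA repair factor. They averaged 97 ± 23.8 and 74.1 ± 12.2 CPM in ChIP, and 37.6 ± 17.0 and 37.9 ± 19 CPM in input. The last pair were LINC01719, beside the variant U1 snRNA gene RNVU1-6, and LINC00612, beside A2M-AS1, with log2 ratios of 2.75 ± 0.44 and 2.66 ± 0.45. All 8 overlapping windows passed with adjusted p-values of 7.4e-07 or lower by edgeR.

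**Figure D3:**
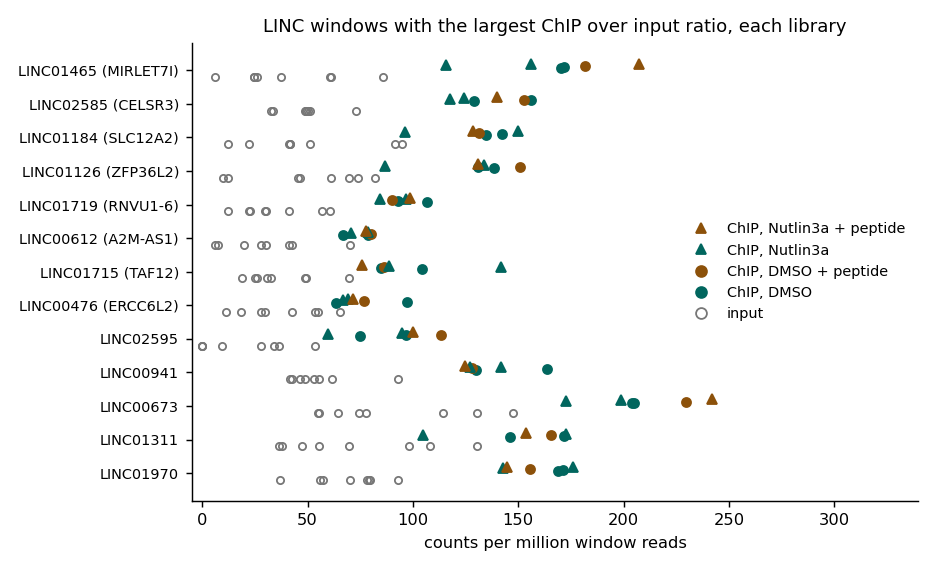
Level in CPM (x axis) in each of 6 ChIP libraries (filled symbols) and 8 inputs (open circles) for the 13 named LINC windows with the largest ChIP over input ratio and at least 100 ChIP reads, with the overlapping gene in brackets for the upper 8. ChIP symbols lie right of the open circles, with some overlap at LINC00612, LINC00476 and LINC01311.

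Members studied in tumours were read whatever their values. Of 17 such members in the table, all tested, 4 were above input: LINC00941 as above, LINC00467, LINC00662 and LINC00839. The share above input was 7.24% of all tested members and 39.1% of all tested windows. LINC00467 (chr1:211382455-211383454) averaged 62.9 ± 11.0 CPM in ChIP and 31.2 ± 16.8 CPM in input, a log2 ratio of 2.34 ± 0.46. LINC00839 (chr10:42475191-42476190) averaged 45.7 ± 11.1 and 31.3 ± 7.83 CPM in ChIP and input (1.93 ± 0.46), and LINC00662 (chr19:27793641-27794640, overlapping LOC101927151) 59.5 ± 12.2 and 49.6 ± 19.8 CPM (1.58 ± 0.44). The call at LINC00662 and LINC00839 was lost with total counts, with log2 ratios of 0.34 and 0.57 (adjusted p = 0.35 and 0.14 by edgeR). It was also lost in the DMSO libraries alone, where the ratios were 2.14 and 2.0 (adjusted p = 0.066 and 0.094 by edgeR).
The other 13 were not called. Their ChIP means ran from 2.45 CPM at LINC01088 to 46.7 CPM at LINC00963. LINC00473, a target of cAMP signalling whose window shares 511 bases with that of LINC00602, had 6.56 ± 2.32 CPM in ChIP and 20.0 ± 10.3 CPM in input. LINC00261, the neighbour of the endoderm factor gene FOXA2, had 6.95 ± 1.28 and 17.3 ± 11.0 CPM, and LINC00460 had 11.4 ± 6.87 and 24.6 ± 13.6 CPM. At these depths such levels cannot be told from background, which is not the same as no transcription.

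Promoter sequence was available for 1192 members, and CpG content differed between the classes. The 81 members above input held a median of 26 CG dinucleotides in 300 bases, with 67.3% G and C, whereas the 1111 others held a median of 4, with 47.3% G and C. Over all windows, those above input had a median of 29 and the rest 11. Isolated members above input (44 with sequence) had a median of 24, and isolated members not above input (1039) a median of 3, so that the contrast was also present where no other window overlaps. With 0 to 4 CG dinucleotides, 5 of 647 members were above input (0.773%), with 5 to 14 it was 9 of 322 (2.8%), with 15 to 24 it was 21 of 108 (19.4%), and with 25 or more it was 46 of 115 (40%).
Input reads rose with CpG too. The median input level in these 4 bins was 4.23, 17.4, 21.8 and 39.3 CPM, beside 2.42, 5.98, 8.83 and 27.0 CPM in ChIP. Across the 1192 members CG dinucleotides had a Spearman correlation of 0.71 with the ChIP level and of 0.68 with the input level, as a description of windows that share the same libraries and their base composition. With the fitted ratio of the 917 tested members it was 0.06. How far base composition enters the calls was not tested.

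The short motif TATAAA, on either strand, was found in 7 of the 81 members above input (8.64%) and in 178 of the 1111 others (16%), beside 11.5% of 35116 RefSeq promoters of the same length. The p53 response element was searched as a pair of its 10-base consensus elements 0 to 13 bases apart, with no mismatch allowed. It was found in 0 of the 1192 members and in 0.0285% of all promoters (10 of 35116). With so few matches anywhere, the 0 cannot set members apart from other promoters. The single 10-base consensus element was found in 7.05% of members and 6.63% of all promoters. No member's window overlapped that of any of 47 listed p53 target genes. LINC-PINT, whose window shares 847 bases with that of LINC00513, was not on that list.

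**Figure D4:**
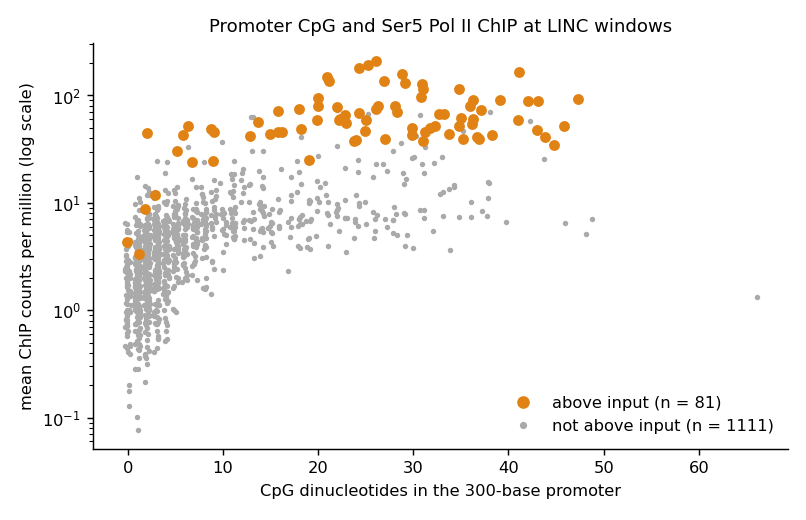
Mean ChIP level in CPM (y axis, log scale) against the number of CG dinucleotides in the 300-base promoter (x axis, points spread slightly sideways) for 1192 LINC windows, 81 of them above input (orange) and 1111 not (grey). Most orange points lie beyond 15 CG dinucleotides, and many grey points with as many CG dinucleotides lie below 20 CPM.

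Nutlin3a was compared with DMSO without peptide, the comparison that asks where stabilised p53 changes polymerase at start sites. By edgeR's quasi-likelihood test over the 6 ChIP libraries, 0 of the 1339 tested members were higher and 0 lower, where 0.00772% of all tested windows were called higher (2 windows) and 0% lower. At an unadjusted p below 0.05, 23 members were higher (1.72%) and 1 lower (0.0747%), against 329 (1.27%) and 272 (1.05%) of all tested windows. Of all 1723 members, tested or not, 464 reached the filter's level in Nutlin3a replicate 1 alone. DESeq2 and limma-voom also called 0 members. The median SE of a tested member's log2 fold change was 0.82, so a change of modest size at a single silent window was not detectable at this depth.

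Ratios lay near 0 where polymerase was found. At the 97 members above input, the log2 ratio of Nutlin3a over DMSO had a median of -0.09 in replicate 1, 0.03 in replicate 2 and -0.04 in the pair with peptide. At the 10137 windows above input in the whole table it was -0.14, -0.03 and 0.01. The fitted changes of the 97 members ranged from -0.55 at LINC01063 to 1.19 at LINC01355, which has few reads. LINC00941 was at -0.19 ± 0.22, LINC00673 at -0.20 ± 0.22 and LINC02595 at -0.21 ± 0.25 (SE), each smaller in size than its error.

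At the 1626 members not above input, the ratio was highest in the replicate 1 pair. The median log2 ratio of Nutlin3a over DMSO was 0.95 in replicate 1, with 88.1% of windows positive, 0.17 in replicate 2, with 60.4% positive, and 0.00 in the pair with peptide, with 43.3% positive. The isolated olfactory receptor windows did the same, with medians of 1.11, 0.21 and -0.11. Nutlin3a replicate 1 is the library with the high share of reads in those silent windows, and 15 members had no read in it, against 99 to 282 in the other ChIP libraries. Over the tested members the fitted median was 0.58 and became 0.13 without that library, and it was 0.03 over the 119 members with a mean of at least 50 reads. Since 464 of the 1723 members reached the filter's level in that library alone, these medians describe the libraries and support no statement on a response.

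**Figure D5:**
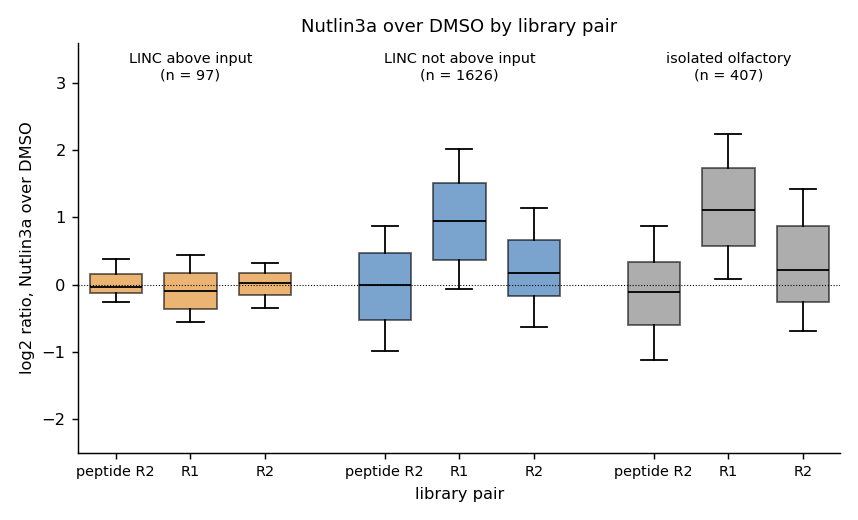
Log2 ratio of Nutlin3a over DMSO (y axis, CPM with a prior count of 2) in the peptide pair and in replicates 1 and 2 without peptide (x axis), for 97 LINC windows above input, 1626 LINC windows not above input and 407 isolated olfactory receptor windows. Lines in the boxes are medians, boxes hold the middle 50% of windows and whiskers reach from the 10th to the 90th percentile. The medians of windows not above input and of olfactory receptor windows are 0.95 and 1.11 in replicate 1, and that of windows above input is -0.09.

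The members with the smallest p were all short of the threshold in this fit, which has no replicate block. LINC02724 (chr11:64448757-64449756) had 25.6 and 25.1 CPM with Nutlin3a and 5.03 and 11.8 CPM with DMSO. With peptide it had 15.6 CPM with Nutlin3a and 21.4 CPM with DMSO. The log2 fold change without peptide was 1.54 ± 0.46 (adjusted p = 0.98 by edgeR). All these levels lay within or below the range of its inputs, 22.8 to 66.8 CPM, and the window was not called above input. It is printed because it was the member nearest to the threshold, and its promoter holds 17 CG dinucleotides in 300 bases.
LINC02724, chr11:64448807-64449106, plus strand: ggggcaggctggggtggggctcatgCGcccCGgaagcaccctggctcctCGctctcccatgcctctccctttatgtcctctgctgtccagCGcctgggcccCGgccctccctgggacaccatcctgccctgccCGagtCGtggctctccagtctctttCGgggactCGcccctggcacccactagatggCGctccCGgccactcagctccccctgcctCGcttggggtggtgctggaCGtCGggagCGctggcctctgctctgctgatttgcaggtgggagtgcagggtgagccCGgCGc

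LINC01562 (chr1:51234797-51235796) had 19.4 and 5.5 CPM with Nutlin3a and 0.915 and 0 CPM with DMSO, and LINC02282 (chr14:28785488-28786487) had 15.5 and 9.79 CPM with Nutlin3a and 2.74 and 3.07 CPM with DMSO. Neither was above input. LINC01562 reached the filter's level of 5.36 CPM only in the 2 Nutlin3a libraries without peptide, so its values are given as a description. LINC01562 is called isolated, yet the next window begins 176 bases from it.
In the other direction, LINC01063 (chr3:196632288-196633287) had 37.2 and 44.7 CPM with Nutlin3a and 58.5 and 56.3 CPM with DMSO, a log2 fold change of -0.55 ± 0.25 (adjusted p = 0.98 by edgeR). LINC02062, now CHD1-DT and beside the gene of the chromatin remodeller CHD1, had 65.1 and 89.3 CPM with Nutlin3a and 99.7 and 101 CPM with DMSO (-0.44 ± 0.23). LINC00537 had 21.7 and 23.2 CPM with Nutlin3a and 28.4 and 40.5 CPM with DMSO (-0.67 ± 0.33). These 3 were picked for the smallest p downwards, and in each the Nutlin3a libraries lay below the DMSO libraries. How many of all windows do so was not counted, and none of the 3 passed.

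The peptide was tested in 2 ways, as a change in the response to Nutlin3a and as a change of level at matched treatment. Both peptide libraries are replicate 2, whereas those without peptide are replicates 1 and 2. Both comparisons therefore mix peptide with replicate number. For the difference between the responses with and without peptide, 0 members were higher and 0 lower by edgeR, as in the whole table (0% each way), and at an unadjusted p below 0.05 it was 0 higher and 8 lower (0.597%), against 107 (0.413%) and 165 (0.637%) of all tested windows. DESeq2 and limma-voom called 0. LINC02724 had the smallest p (-1.98 ± 0.76, adjusted p = 1.00 by edgeR). LINC00999 had 3.12 CPM with Nutlin3a and peptide, 35.7 and 14.7 CPM with Nutlin3a, 7.88 CPM with DMSO and peptide, and 11.0 and 9.22 CPM with DMSO, a difference of -2.54 ± 1.00. Its level with Nutlin3a rests on replicate 1, and all of its ChIP values lay within or below the range of its inputs, 11.1 to 85.6 CPM. LINC01108 was at -4.20 ± 1.69, and the 3 with the smallest p upwards were LINC01271 (1.13 ± 0.57), LINC02616 (1.49 ± 0.77) and LINC02405 (0.85 ± 0.46).

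For the level with against without peptide, 0 members passed in either direction by edgeR (0% of all windows each way), and at an unadjusted p below 0.05 there were 8 higher (0.597%) and 40 lower (2.99%), against 188 (0.726%) and 616 (2.38%) of all tested windows. DESeq2 and limma-voom called 0. The median log2 change of the tested members was -0.28, but -0.06 with a replicate block and -0.02 within the replicate 2 libraries. The smallest p belonged to LINC00999 (-1.68 ± 0.51, adjusted p = 1.00 by edgeR). LINC02762 and LINC00111 followed with fitted values that fell by 2.0 ± 0.65 and 2.02 ± 0.66 on the log2 scale. At LINC00999, LINC02762 and LINC00111, levels without peptide were higher in replicate 1 than in replicate 2 at both treatments. With Nutlin3a they were 35.7, 15.5 and 20.2 CPM in replicate 1, against 14.7, 8.56 and 6.12 CPM in replicate 2. Upwards, LINC01305 had 10.7 and 14.6 CPM with peptide under Nutlin3a and DMSO, and 3.07 to 5.43 CPM in the 4 libraries without it (1.66 ± 0.54). LINC01475 had 17.4 and 16.3 CPM with peptide and 2.74 to 8.56 CPM without (1.43 ± 0.47), and LINC02449 had 42.8 and 49.0 CPM with peptide and 23.8 to 31.8 CPM without (0.65 ± 0.24). These 3 were picked for the smallest p upwards, and in each both peptide libraries lay above all others. How many of all windows do so was not counted, and none of the 3 was called above input. At the 97 members above input, the median log2 ratio of peptide over no peptide in replicate 2 was 0.03 under Nutlin3a and 0.03 under DMSO.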

How the data were processed

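The authors deposited raw read counts per gene window (1 column for each of 6 ChIP and 8 input libraries), with hg38 as the build per the submitters' processing notes; aligner and counting tool are not given in the sources used here. The deposited scaled signal of each ChIP library equals its counts times 1 constant (0.595 to 1.82), derived in a way not given here, and served as an alternative scaling only. No sample column was left unused. Members and lists were chosen with earlier results of these data known.

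Windows were kept with filterByExpr (minimum count 10 over the 6 ChIP libraries), which left 25901. edgeR 4.0.16 in R 4.3.3 fitted quasi-likelihood models, 8 group means over 14 libraries for ChIP against input (biological coefficient of variation 51.6%) and 4 group means over the 6 ChIP libraries with TMM scaling for the rest (26.0%). A lone peptide library was assumed to vary like the others. P-values were adjusted by Benjamini-Hochberg over all tested windows, with 0.05 as the threshold. The models were tested on simulated data. CPM divides by a library's reads in all windows, so it understates ratios of ChIP over input. Named were members past the threshold or, with none, the 3 with the smallest p per direction, the 8 isolated and 8 overlapping members with the largest ChIP over input ratio among those called, and 18 listed LINC genes, of which 17 matched and 1 is not analysed here. Tests were 2-sided. Replicates of each pair differed by more than counting noise, so none was counted as a duplicate. Alternatives were other scalings, filters, DESeq2 1.42.0, limma 3.58.1, a replicate block and leaving out each library. Intervals and floors cover counting error only.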

Additional observations from a re-analysis of the deposited data

Results flagged for a closer look

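Of the 11 members named for the smallest p in the Nutlin3a comparison or the difference of responses, 8 had opposite signs with and without peptide. Both library pairs without peptide had log2 ratios of Nutlin3a over DMSO of one sign, and the pair with peptide had the other. That sign rests on values close to none at LINC02282 (-0.01) and LINC02062 (0.09). The share of all windows with this pattern was not counted. The difference between the responses was tested by edgeR and passed at none of them. It was -1.98 at LINC02724, where the log2 ratio of Nutlin3a over DMSO was -0.43 with peptide and 2.12 and 1.02 without. It was -6.21 at LINC01562 (-0.86 with peptide, 3.36 and 2.60 without), -2.03 at LINC02282 (-0.01, 2.12 and 1.39), -2.54 at LINC00999 (-1.09, 1.61 and 0.61) and -4.20 at LINC01108 (-1.23, 2.52 and 1.35). In the other direction it was 0.75 at LINC01063 (0.18 with peptide, -0.64 and -0.33 without), 0.53 at LINC02062 (0.09, -0.61 and -0.17) and 1.13 at LINC01271 (0.71, -0.20 and -0.39). LINC01562 reached the filter's level in the Nutlin3a libraries without peptide alone. The members were chosen for small p-values in these comparisons, so the values are a description, and members named for other comparisons were not read for this pattern. With 1 or 2 libraries in a group, no group was large enough for a check of single outlying samples.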

How the results depend on the processing

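The count of 97 members above input was 55 with TMM factors, 33 with total counts and 38 from the DMSO libraries alone, and all members called under these were among the 97. It was 91 to 106 with no filter, a mean count of at least 50, DESeq2, a replicate block (101) and, chosen after seeing the data, silent windows without the fullest of them. Leaving out 1 library gave 79 to 116. The difference between overlapping and isolated windows, 28.4 percentage points, was 19.5 with TMM and 13.3 with total counts, and 23.9 to 32.6 points when 1 ChIP library was left out. It was 26.2 points with at least 500 shared bases, 29.0 with isolation beyond 5000 bases and 30.6 over filtered windows. For Nutlin3a the replicate block called 1 member higher (LINC02724, adjusted p = 0.041) and other settings 0. Over all 25901 tested windows, the block called 39 higher, where the fit without it called 2. The block is not given by the labels. Same-numbered ChIP libraries deviated together (r = 0.48 across 13243 windows) and inputs did not (0.01 to 0.03). The authors' scaling moved the median of all windows for Nutlin3a to 0.53 from 0.04, and that of members to 1.14. For the peptide, 0 to 4 members were lower when 1 library was left out: 4 without DMSO replicate 2 (LINC00641, LINC01399, LINC02535 and LINC01504), 1 without Nutlin3a replicate 2 (LINC01730). In both of these fits a smaller share of tested members than of all tested windows was called lower, so the calls do not set members apart. Each fit leaves 1 library in the DMSO or Nutlin3a group without peptide, so the named members are a description. None of the 37 single values recomputed changed sign. Depth limits the silent members, whose inputs often hold 0 to 3 reads.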
